A study of Mus musculus with 6 samples.

Results

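The histone genes of the mouse were read in MLL-AF10 leukemia cells given an IKK inhibitor or vehicle. They were chosen by name, as all probe sets annotated to a single replication-dependent histone gene (older names beginning Hist1h, Hist2h, Hist3h or Hist4h) or to H2afx, H2afy, H2afz, H2afv, H3f3a, H3f3b or H1f0. Of the 35512 probe sets of the table, 37 met this rule, and they read 36 of the 19938 named genes, all 36 of which were tested. There were 5 genes of linker histone H1, 5 of H2A, 11 of H2B, 3 of H3, 7 of H4 and 5 variants. The current names of the variants are H2ax, Macroh2a1 (H2afy), H2az1 (H2afz), H2az2 (H2afv) and H3f3a. RefSeq lists 78 mouse genes that meet the rule, and 42 of them, H1f0 and H3f3b included, had no probe set annotated to them alone. The coverage was uneven, since 16 of 21 H2A genes and 9 of 12 H3 genes, but 8 of 19 H2B genes, lay among those 42.

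The cells are a mouse line labelled MLL-AF10, a leukemia fusion that joins the histone methyltransferase MLL (Kmt2a) to AF10 (Mllt10), and they were cultured in medium with serum and WEHI cell-conditioned medium. The vehicle group and the group given 0.5 µM IKK inhibitor held 3 arrays each, and the cells of both groups carried the same fusion. IKK is the kinase that triggers loss of IkB and so frees NF-kB to enter the nucleus. The inhibitor is not named, and its time of action is likewise not given in the sources used here. Array medians lay between 112 and 124. The log2 values of any pair of arrays within a group correlated at 0.993 to 0.997, and of any pair across groups at 0.988 to 0.991. No source says whether replicates are separate cultures, so p-values cover only the spread between these arrays, perhaps a technical one, and the small number of arrays limits the precision. Of the cell type markers, summed intensity of 21 monocyte and macrophage genes ran from 13906 to 14418 on the vehicle arrays and from 23841 to 25355 on the inhibitor arrays. That of 12 progenitor genes ran from 22584 to 23412 and from 19628 to 20053, and that of 9 T cell genes from 963 to 1070 and from 902 to 1064. Every listed marker with a probe set of its own was above the floor of 16 on some array, which does not show that it is expressed.

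Nucleosomes wrap DNA around the core histones H2A, H2B, H3 and H4, and H1 binds the linker between them. Most core and H1 histones are made from replication-dependent genes, which lie in clusters, are transcribed in S phase under NPAT, and give mRNAs that end in a stem-loop bound by SLBP in place of a poly(A) tail. Some of these genes can also give polyadenylated mRNA, above all in cells that have left the cycle; which form each probe set reads is not known here. Variants such as H2A.Z, H3.3 and macroH2A are made from separate genes outside S phase too and replace the core histones at chosen sites.

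Promoters of the clustered genes share short elements, so the windows before their starts are shown for 4 of the 7 members called below. The table used has no window for the other called members, H2bc4, H2bc21 and H2ax. RefSeq's promoter table (GRCm38.p6) held a window for 30 of the 36 members. The 250 bases before the start were searched on both strands for CCAAT, for TATAA and for the octamer ATTTGCAT, an element known from H2B promoters; none of the motifs contains another. CCAAT was found in 24 of 30 windows (80.0%) against 33.8% of all 32851 windows, TATAA in 19 of 30 (63.3%) against 22.8%, and the octamer in 9 of 30 (30.0%) against 1.6%. The octamer stood in 5 of 8 H2B windows and 4 of 5 H2A windows, and in none of the 5 H1, 2 H3, 6 H4 and 4 variant windows. These windows are not all separate sequences, since H2ac1 and H2bc1 are transcribed away from each other and overlap, as do H2ac8 and H2bc8. Counted over the full windows, which also run past the start, the pairs share 220 and 279 bases. In both pairs the octamer was found in both windows, so these matches are not all separate. The lines give the 200 bases before the start, read 5′ to 3′ on the gene's strand, with CCAAT or its reverse complement and the octamer in capitals. H2bc14 and H1f2 were higher with the inhibitor, and H3c15 and Macroh2a1, a variant gene outside the clusters, lower. In this stretch H2bc14 has CCAAT or its complement beginning 142, 81 and 55 bases before the start and the octamer at 25, H1f2 has CCAAT at 54, and the stretches of H3c15 and Macroh2a1 hold no match to the 3 motifs. Such a match is a description of the letters, not a measured binding site. Whether the motifs go with the direction of change was not tested.
H2bc14 (chr13:21721844-21722043, plus strand): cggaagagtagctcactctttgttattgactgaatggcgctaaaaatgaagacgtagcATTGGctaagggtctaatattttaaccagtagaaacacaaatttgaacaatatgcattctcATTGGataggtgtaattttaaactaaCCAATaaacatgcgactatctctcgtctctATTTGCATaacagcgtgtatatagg
H1f2 (chr13:23738607-23738806, plus strand): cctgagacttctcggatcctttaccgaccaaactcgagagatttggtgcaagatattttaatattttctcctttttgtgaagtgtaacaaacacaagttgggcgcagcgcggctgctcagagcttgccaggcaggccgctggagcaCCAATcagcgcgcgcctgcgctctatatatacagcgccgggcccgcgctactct
H3c15 (chr3:96239128-96239327, minus strand): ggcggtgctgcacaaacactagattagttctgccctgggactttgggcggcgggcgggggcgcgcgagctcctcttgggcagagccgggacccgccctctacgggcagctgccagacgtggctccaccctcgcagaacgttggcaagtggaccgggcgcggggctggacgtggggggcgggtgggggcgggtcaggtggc
Macroh2a1 (chr13:56135551-56135750, minus strand): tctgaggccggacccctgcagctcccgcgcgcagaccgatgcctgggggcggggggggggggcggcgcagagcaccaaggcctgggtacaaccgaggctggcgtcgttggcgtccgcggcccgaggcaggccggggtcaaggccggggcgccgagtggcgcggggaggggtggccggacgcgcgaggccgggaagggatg

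The question of the comparison is which histone transcripts differ in level after IKK inhibition. Of the 36 genes, 4 were higher with the inhibitor (H2bc4, H1f2, H2bc14 and H2ax) and 3 were lower (Macroh2a1, H3c15 and H2bc21), at an adjusted p under 0.05 in limma with Benjamini-Hochberg adjustment over 19847 genes. That is 19.4% of the members, against 13.9% of all genes tested, of which 7.1% were higher and 6.75% lower. The replication-dependent genes alone gave 3 higher and 2 lower of 31 (16.1%), close to that background. The median log2 fold change was 0.07 over the 36 genes and 0.0064 over all genes. The 3 inhibitor arrays lay above the 3 vehicle arrays for 10 members and below them for 5, which happened for 15.8% and 17.2% of all genes (33% in either direction). The split of the calls depends on scaling: quantile normalization and centring each array on its median both gave 1 higher and 2 lower in place of 4 and 3. Leaving out 1 array gave 1 higher and 1 lower without vehicle 2 or inhibitor 1, 2 and 1 without vehicle 1, 2 and 3 without vehicle 3, 3 and 4 without inhibitor 2, and 1 and 2 without inhibitor 3. Some of these calls fell on genes other than the 7. Without inhibitor 2, H2bc4 alone of the 4 stayed higher, H2bc1 and H3c7 entered as higher and H3c4 as lower. Without vehicle 3, H2bc4 alone of the 4 stayed higher, H2ac8 entered as higher and H1f3 as lower, and H2bc21 was lost. Without inhibitor 3, H4c9 entered as lower, and H3c15 and H2bc21 were lost. Over all genes the counts were 1409 higher and 1340 lower with all arrays. They were 884 and 679 without vehicle 1, 790 and 396 without vehicle 2, and 803 and 421 without vehicle 3. Without inhibitor 1, 2 and 3 they were 829 and 446, 1535 and 1310, and 1070 and 765. Of the 7 genes, H2bc4 and Macroh2a1 were called in each of the 22 alternatives, and with every probe set tested singly only these and H3c15 were called.

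**Figure D1:**
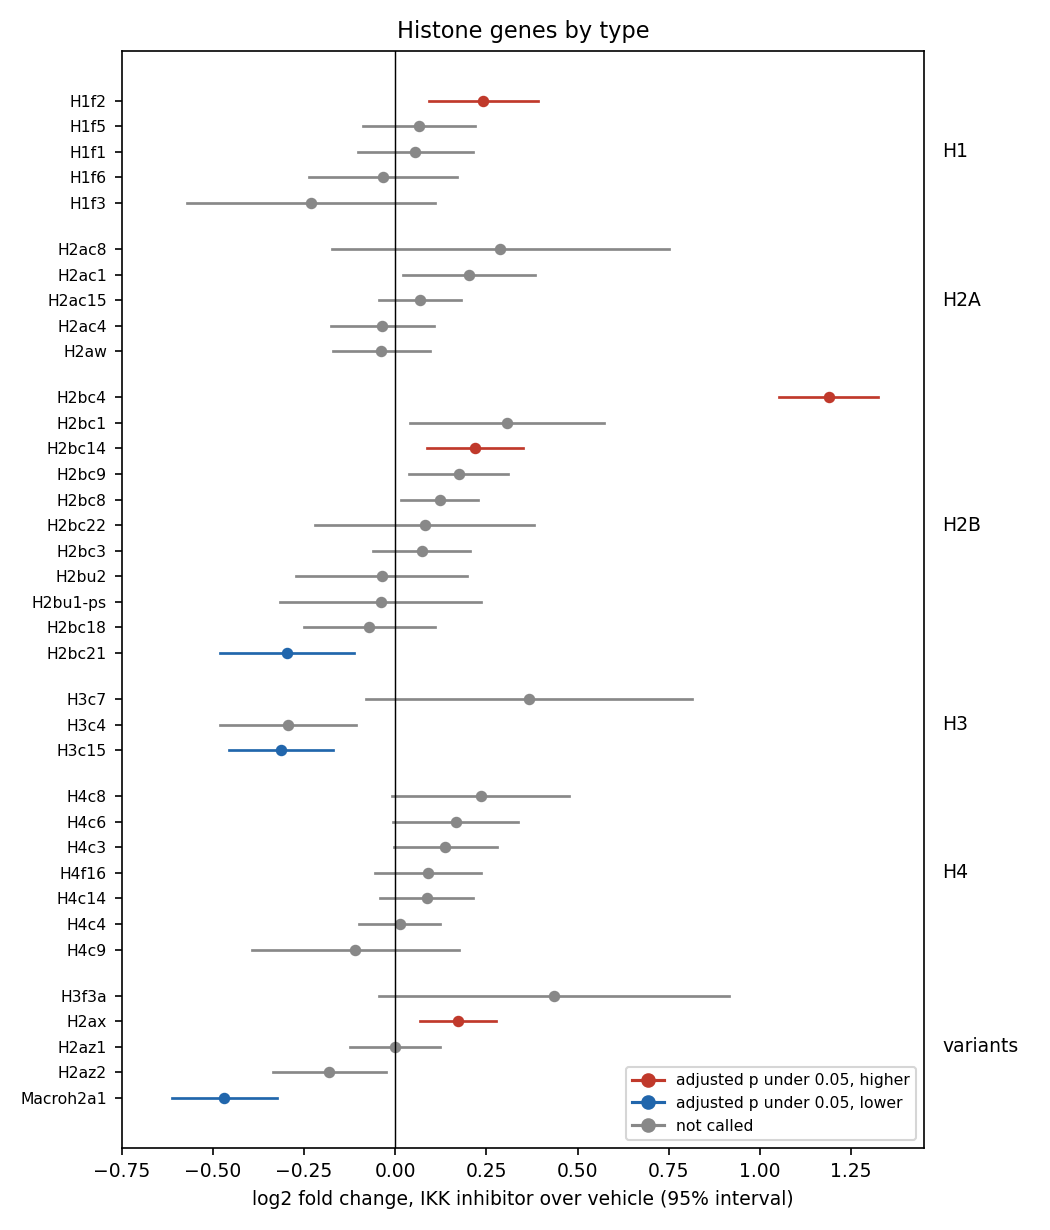
Log2 fold change of each of the 36 histone genes, inhibitor over vehicle, with its 95% interval from the fit across all genes, grouped by histone type and ordered within it. H2bc4 stands at 1.19, and the other 35 points lie between -0.47 (Macroh2a1) and 0.44 (H3f3a); red and blue mark the 4 genes called higher and the 3 called lower.

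Among the H2B genes, H2bc4 (Hist1h2bc, probe set 10404053) had the largest difference of the 36 members. Its intensity was 661, 687 and 726 on vehicle arrays 1, 2 and 3 and 1528, 1563 and 1634 on inhibitor arrays 1, 2 and 3. All inhibitor arrays stood far above all vehicle arrays, with little spread within either group. H2bc4 rose by 1.19 ± 0.06 (SE) on the log2 scale, with a 95% interval from 1.05 to 1.32 and a limma adjusted p of 8.68e-05. This change was larger in size than that of 99.5% of the genes tested. The adjusted p lay between 0.000434 and 0.00147 when any single array was left out, and the fold change between 1.16 and 1.22 over the 22 alternatives.

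H2bc4 lies in the large Hist1 cluster, and the members beside it differed less between the groups. In RefSeq's gene order the next histone genes on one side are H1f6, H4c3 and H1f2, with log2 fold changes of -0.03, 0.14 and 0.24, of which only H1f2 was called. The neighbours on the other side, H2ac6, H1f4 and H2bc6, had no probe set of their own, and H4c4 beyond them stood at 0.01 with an adjusted p of 0.911. A probe set annotated jointly to H2bc6 and H1f4 had a log2 fold change of 0.18 with an adjusted p of 0.321.

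H2bc14 (Hist1h2bm, probe set 10403943) was the other H2B gene called higher. It measured 2811, 2564 and 2559 on the vehicle arrays and 3080, 3092 and 3055 on the inhibitor arrays. The groups did not overlap, although vehicle 1 stood apart from the other vehicle arrays. H2bc14 rose by 0.22 ± 0.06 (SE) with a limma adjusted p of 0.0445, and this call was kept when vehicle 1 was left out (0.0427) and lost without any of the other 5 arrays (0.0764 to 0.154) and with quantile normalization (0.0877) or centring (0.196).

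H2bc21 (Hist2h2be, probe set 10494388), from the smaller Hist2 cluster, differed in the opposite direction. It measured 209, 228 and 214 with vehicle and 172, 195 and 164 with the inhibitor, so that each inhibitor array lay below each vehicle array. H2bc21 fell by 0.30 ± 0.08 (SE) with a limma adjusted p of 0.0488. The call was kept without inhibitor 2 (0.0171), the highest of its group, and lost without any other array (0.0886 to 0.163) and with quantile normalization (0.062), centring (0.0638), no filter (0.0531) or a floor of 1 (0.0516).

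The other 8 H2B genes were not called and had log2 fold changes between -0.07 (H2bc18) and 0.31 (H2bc1, the testis form). Among them H2bc8 measured 1519, 1490 and 1525 with vehicle and 1636, 1647 and 1651 with the inhibitor. Its groups were tight and apart, yet the difference was only 0.12 ± 0.04 (SE), with a limma adjusted p of 0.127. H2bc9 measured 2312, 2187 and 2279 with vehicle and 2564, 2412 and 2675 with the inhibitor, a difference of 0.17 ± 0.06 (SE) and an adjusted p of 0.0999. H2bc3, H2bc22, H2bu2 and the transcribed pseudogene H2bu1-ps lay between -0.04 and 0.08, with overlapping arrays. Of all 11 H2B genes, 6 had an unadjusted p under 0.05 in limma and 4 had inhibitor arrays above all vehicle arrays. Among all genes tested these were 5394 of 19847 and 15.8%. The median of the H2B genes was 0.08. H2bc8, H2bc9, H2bc1, H2bc3, H2bc22, H2bu2 and H2bu1-ps, and the other members given below with no call, are named to account for the whole family.

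**Figure D2:**
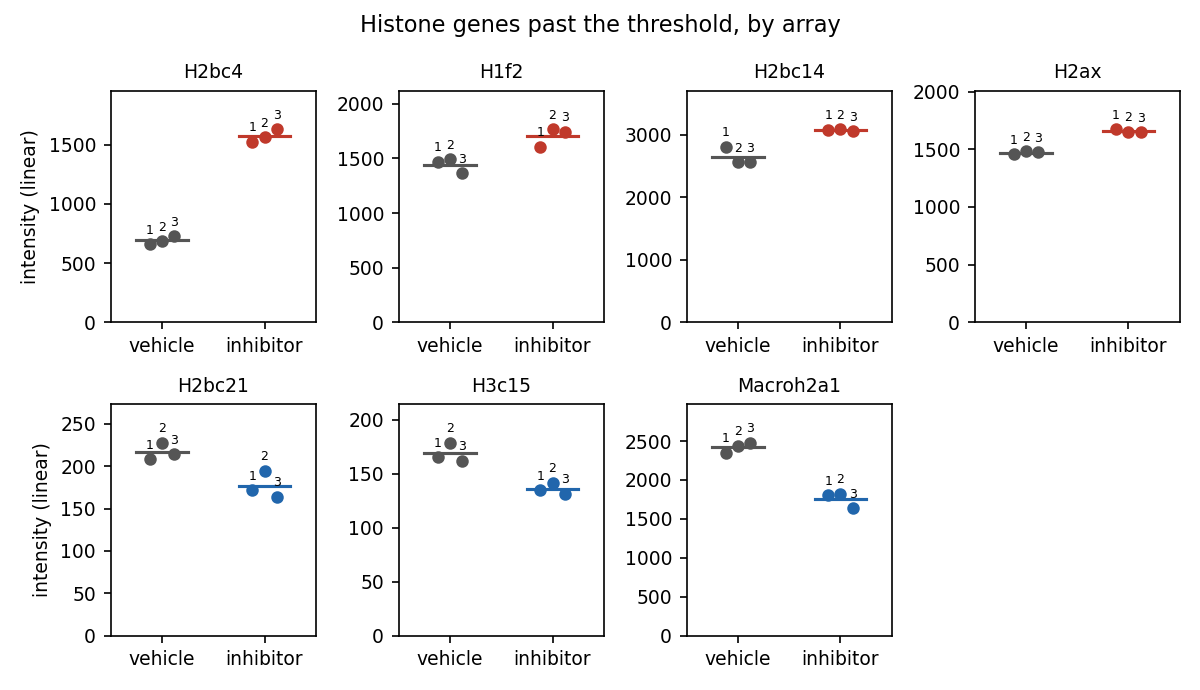
Intensity (linear axis from 0) of the 7 histone genes past the threshold on the 3 vehicle and 3 inhibitor arrays, with bars at the group means and numbers giving the array. H2bc4 goes from 661 to 726 with vehicle to 1528 to 1634 with the inhibitor. In the other 6 panels the groups are apart by less on the log2 scale. Macroh2a1, at 2350 to 2480 with vehicle and 1636 to 1821 with the inhibitor, differs most among these 6.

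Linker histone H1 binds where DNA enters and leaves the nucleosome. H1f2 (Hist1h1c, probe set 10404059), which encodes H1.2, measured 1472, 1495 and 1365 with vehicle and 1607, 1769 and 1745 with the inhibitor. The groups did not overlap, and inhibitor 1 lay nearest the vehicle arrays. H1f2 rose by 0.24 ± 0.06 (SE) with a limma adjusted p of 0.0488. It was not called when any of the 6 arrays was left out (0.0659 to 0.158), nor with quantile normalization (0.0689), centring (0.183), array weights (0.0574) or a floor of 1 (0.051).

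The other 4 H1 genes did not pass the test, and all had overlapping arrays. H1f5 measured 1938, 2020 and 2083 with vehicle and 2081, 1983 and 2261 with the inhibitor, a log2 difference of 0.06 ± 0.06 (SE). H1f1 also stood at 0.06 and the testis form H1f6 at -0.03. H1f3 stood at -0.23 ± 0.14 (SE), with a limma adjusted p of 0.366 and vehicle arrays that ran from 68.4 to 98.2.

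None of the 5 replication-dependent H2A genes was called, and 1 had an unadjusted p under 0.05 in limma, against 5394 of all 19847 genes. That gene was H2ac1, the testis form, which measured 176, 202 and 206 with vehicle and 232, 212 and 226 with the inhibitor. Its arrays did not overlap, and its log2 difference was 0.20 ± 0.08 (SE) with a limma adjusted p of 0.139. H2bc1, which shares its promoter region, stood at 0.31 ± 0.11 (SE) with an adjusted p of 0.13 and overlapping arrays. H2ac8 measured 42.2, 40.4 and 67.7 with vehicle and 63.0, 54.3 and 61.5 with the inhibitor, so vehicle 3 lay above all inhibitor arrays. The difference of 0.29 ± 0.19 (SE) had an adjusted p of 0.409, and without vehicle 3 it was 0.53 with an adjusted p of 0.025. H2ac15 stood at 0.07 and H2ac4 and H2aw at -0.04. With quantile normalization the median of the type, 0.07 as deposited, became -0.0059, so no direction is given for it.

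Of the 3 H3 genes, 1 was called lower and 2 had inhibitor arrays below all vehicle arrays. Among all genes these were 6.75% and 17.2%. H3c15 (Hist2h3c2, probe set 10500327), of the Hist2 cluster, measured 166, 179 and 162 with vehicle and 135, 142 and 132 with the inhibitor. H3c15 fell by 0.31 ± 0.06 (SE) with a limma adjusted p of 0.0179. The call was kept without vehicle 3 (0.0476) or inhibitor 2 (0.0222) and narrowly lost without vehicle 1 (0.0505), vehicle 2 (0.0678), inhibitor 1 (0.0705) or inhibitor 3 (0.0564). Scaling did not end it. H3c4 measured 193, 177 and 198 with vehicle and 144, 169 and 150 with the inhibitor, a difference of -0.29 ± 0.08 (SE) that missed the threshold (limma adjusted p of 0.0532). It was called lower in 8 of the 22 alternatives. H3c7 went the other way, with 38.9, 44.1 and 44.9 against 56.4, 41.1 and 71.2, but its arrays overlapped and its difference of 0.37 ± 0.19 (SE) had an adjusted p of 0.277.

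No H4 gene was called, and none had an unadjusted p under 0.05 in limma, against 5394 of all 19847 genes. All mouse H4 genes of the clusters encode almost the same protein. A log2 fold change above 0 was found for 6 of the 7 measured here (5 with quantile normalization or centring), and the median was 0.09. Among all genes tested 10308 of 19847 were above 0. H4c3 measured 1676, 1566 and 1504 with vehicle and 1682, 1739 and 1795 with the inhibitor. Its lowest inhibitor array stood just above its highest vehicle array, and the difference was 0.14 ± 0.06 (SE) with a limma adjusted p of 0.197. H4c8 had the largest difference of the type at 0.23 ± 0.10 (SE), from 93.3, 96.0 and 108 to 118, 102 and 130, with overlapping arrays and an adjusted p of 0.198. H4c4 stood at 0.01 with a 95% interval from -0.10 to 0.12. H4c9 was the lowest at -0.11 ± 0.12 (SE). H4c6, H4f16 and H4c14 lay between 0.09 and 0.17. With a trended robust prior H4c3 and H4c6 were called higher.

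The variants went different ways. MacroH2A1, which carries a large non-histone macro domain and is known from silent chromatin, is made from Macroh2a1 (H2afy, probe set 10409557). It measured 2350, 2438 and 2480 with vehicle and 1802, 1821 and 1636 with the inhibitor. Each inhibitor array lay far below the lowest vehicle array. Macroh2a1 fell by 0.47 ± 0.06 (SE), with a 95% interval from -0.61 to -0.33 and a limma adjusted p of 0.00438, and the adjusted p lay between 0.00854 and 0.0273 with any array left out. Its paralog Macroh2a2, which is no member of the rule, measured 127, 131 and 132 with vehicle and 165, 179 and 145 with the inhibitor. Macroh2a2 rose by 0.32 ± 0.08 (SE) with an adjusted p of 0.0421, a call that quantile normalization (0.133), centring (0.107) and leaving out any array but inhibitor 3 end.

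H2ax encodes H2A.X, which is phosphorylated beside DNA breaks. Its probe set (10584710) measured 1457, 1482 and 1476 with vehicle and 1675, 1651 and 1649 with the inhibitor. The spread within each group was small against the distance between them, and H2ax rose by 0.17 ± 0.04 (SE) with a limma adjusted p of 0.0466. It was not called when any of the 6 arrays was left out (0.0715 to 0.152), nor with quantile normalization (0.0557) or centring (0.355).

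H2A.Z, which marks the nucleosomes around active promoters, is encoded by H2az1 and H2az2. H2az1 measured 3087, 3162 and 3358 with vehicle and 3179, 3192 and 3226 with the inhibitor. Its groups overlapped fully, with a log2 difference of -0.0005 ± 0.05 (SE) and a 95% interval from -0.12 to 0.12. The gene's other probe set gave 0.0018, with an adjusted p of 0.991 when every probe set was tested singly. H2az2 measured 810, 847 and 851 with vehicle and 762, 774 and 679 with the inhibitor. All inhibitor arrays lay below all vehicle arrays, but the difference of -0.18 ± 0.07 (SE) had a limma adjusted p of 0.127.

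H3f3a encodes H3.3, the replacement form of H3. The only probe set annotated to it alone measured 48.9, 30.5 and 43.6 with vehicle and 63.4, 44.1 and 57.6 with the inhibitor. These values lie below the array medians, the arrays overlapped, and the difference of 0.44 ± 0.20 (SE) had a limma adjusted p of 0.226. Another 4 probe sets are annotated to H3f3a together with a predicted gene, Gm12657, and cannot be credited to either. They measured 2508 to 3678, with inhibitor arrays above all vehicle arrays in all 4 and differences from 0.15 to 0.27; tested singly, 2 were called higher (adjusted p from 0.0423 to 0.121 over the 4). Tested that way, 7.35% of 34450 probe sets were called. The 4 may read the same transcripts, so they are not separate results. A further 2 are annotated to H3f3b with Gm6485 and stood at -0.02 and -0.01.

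Near-identical coding sequences leave many histone genes without a probe set of their own, and their signal appears in probe sets annotated to several genes at once. These are no members, and no gene is named from them. Of 7 H2B probe sets of this kind (6 with distinct values, each annotated to 14 or 15 genes), all 7 had inhibitor arrays above all vehicle arrays. Arrays of the groups were apart in one direction or the other in 28.6% of all probe sets. The 7 may read the same transcripts and are not separate results, so their count cannot be weighed against that share. Their differences lay between 0.12 and 0.15 with adjusted p from 0.168 to 0.286, so none was called. The 10 H3 probe sets, each annotated to 12 genes, measured 5145 to 6165 and stood between -0.02 and -0.01. The probe sets of H3c15 and H3c4 stood at -0.31 and -0.29; the difference between these and the joint probe sets was not tested. Of 6 H4 probe sets, 5 stood between 0.04 and 0.06 and the other at -0.22 ± 0.16 (SE). The 2 annotated to many H2A genes with H2ax and H3c4 stood at 0.05 and 0.08. Of the 27 joint probe sets that leave H3f3a and H3f3b aside none was called in limma, and 2, both of H2B, had an unadjusted p under 0.05. The share of all probe sets at that unadjusted p was not counted. Whether probe sets annotated to a single gene also read near-identical copies was not tested.

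**Figure D3:**
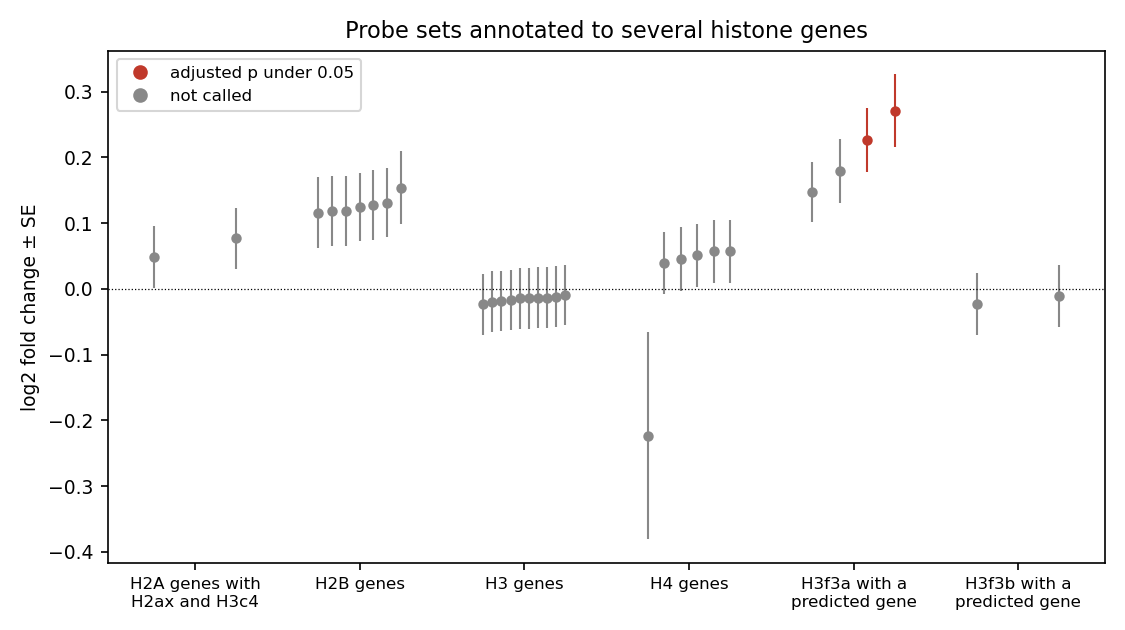
Log2 fold change ± SE of 31 of the 33 probe sets annotated to more than one gene with a histone among them, each tested singly and with identical values kept; the joint probe set of H2bc6 and H1f4 and 1 of an H2A gene with another gene are not drawn. The 7 H2B probe sets lie between 0.12 and 0.15 and the 10 H3 probe sets between -0.02 and -0.01; the 2 in red are annotated to H3f3a with a predicted gene.

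Histone mRNA is trimmed at its 3′ end by a machinery of its own. Of 23 measured genes for the transcription, processing and decay of histone mRNA, 5 fell and 1 rose, with a median of -0.07. That is 26.1% called, against 13.9% of all genes. Snrpb, a core protein of the Sm ring, measured 1528, 1509 and 1607 with vehicle and 1149, 1191 and 1167 with the inhibitor and fell by 0.40 ± 0.05 (SE; limma adjusted p of 0.0037). Casp8ap2 (FLASH), which recruits the cleavage complex to the stem-loop pre-mRNA, fell by 0.24 ± 0.05 (SE), from 480, 472 and 490 to 394, 427 and 405, with an adjusted p of 0.0286. Srrt (ARS2) fell by 0.28 and the cleavage factors Cstf2 and Cpsf2 by 0.23 and 0.19, while Tut7, a terminal uridylyltransferase, rose by 0.19, with adjusted p from 0.0283 to 0.0466. Slbp, the stem-loop binding protein itself, measured 1028, 1191 and 1174 with vehicle and 1214, 1134 and 1201 with the inhibitor; the groups overlapped, and the difference of 0.07 ± 0.07 (SE) had an adjusted p of 0.623. Npat stood at -0.10 ± 0.07 (SE) with an adjusted p of 0.375. Leaving out inhibitor 2 left 3 falls, leaving out any other array left 1, and centring left 1. Falls among all genes were also fewer in each of these settings, but only slightly without inhibitor 2 (1310 against 1340).

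Of 24 measured histone chaperones and importers, 3 fell and none rose, with a median of -0.06. That is 12.5% called, near the 13.9% of all genes. Nasp, a chaperone of H1 and of H3 with H4, measured 525, 585 and 618 with vehicle and 455, 474 and 469 with the inhibitor and fell by 0.30 ± 0.07 (SE; limma adjusted p of 0.033). Asf1a, which passes H3 and H4 on to the deposition factors, fell by 0.20, and Ipo4, an importin for them, by 0.22, with adjusted p of 0.0387 and 0.0498. Asf1b and Chaf1b, both used in replication, stood at -0.07 and -0.05 with adjusted p of 0.443 and 0.642. Hira, which deposits H3.3, stood at -0.17 with an adjusted p of 0.0644. Without vehicle 1 the falls came to 1, and without any other array to 0. Over all genes there were also fewer falls with any array left out, least so without inhibitor 2 (1310 against 1340).

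Other variants outside the rule include Cenpa, the H3 form of the centromere. It measured 1135, 1096 and 1144 with vehicle and 851, 926 and 752 with the inhibitor, with no overlap, and fell by 0.42 ± 0.08 (SE; limma adjusted p of 0.018). The oocyte linker H1f8 fell by 0.24 at values between 51.6 and 65.3 (adjusted p of 0.0463). H2ab1, a short H2A variant, stood at 0.18 with an adjusted p of 0.173. With Macroh2a2, 3 of the 7 measured variants of this list were called (42.9%, against 13.9% of all genes), 1 higher and 2 lower. Without inhibitor 3 the counts were 1 and 1, without vehicle 3 they were 0 and 1, and without vehicle 1, vehicle 2 or inhibitor 1 0 and 0. They were also 1 and 1 without inhibitor 2, but the gene then called higher was H2ab1 (adjusted p of 0.0321), not Macroh2a2 (0.0648).

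Replication-dependent histones and the genes of DNA replication are both used in S phase. Of 35 measured genes of G1/S and DNA replication, 17 fell and none rose (48.6% called, against 13.9% of all genes), with a median of -0.20. In 30 of the 35 all inhibitor arrays lay below all vehicle arrays, against 17.2% of all genes. Fen1, the flap endonuclease, measured 626, 662 and 640 with vehicle and 490, 510 and 518 with the inhibitor and fell by 0.34 ± 0.05 (SE; limma adjusted p of 0.007). The checkpoint kinase Chek1 fell by 0.39, the uracil glycosylase Ung by 0.31 and the replication factor Gins1 by 0.36. Of the 31 replication-dependent histone genes, 20 (18 with quantile normalization, 19 with centring) had a log2 fold change above 0, 2 fell and 3 rose. Among all genes tested 10308 of 19847 were above 0. Of 19 measured G2/M genes, 3 fell and none rose (15.8% called, near the 13.9% of all genes), with a median of -0.13. The counts of falls among the 35 genes were 6 without vehicle 1 or inhibitor 1, 3 without vehicle 2 or 3, 14 without inhibitor 2 and 11 without inhibitor 3, while the median stayed between -0.23 and -0.18 over all alternatives that gave it. Falls among all genes, 1340 with all arrays, were 679, 396 and 421 without vehicle 1, 2 and 3. Without inhibitor 1, 2 and 3 they were 446, 1310 and 765. Whether the lists differ was not tested. The counts for G2/M were 2 without inhibitor 2 and 0 without any other array.

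**Figure D4:**
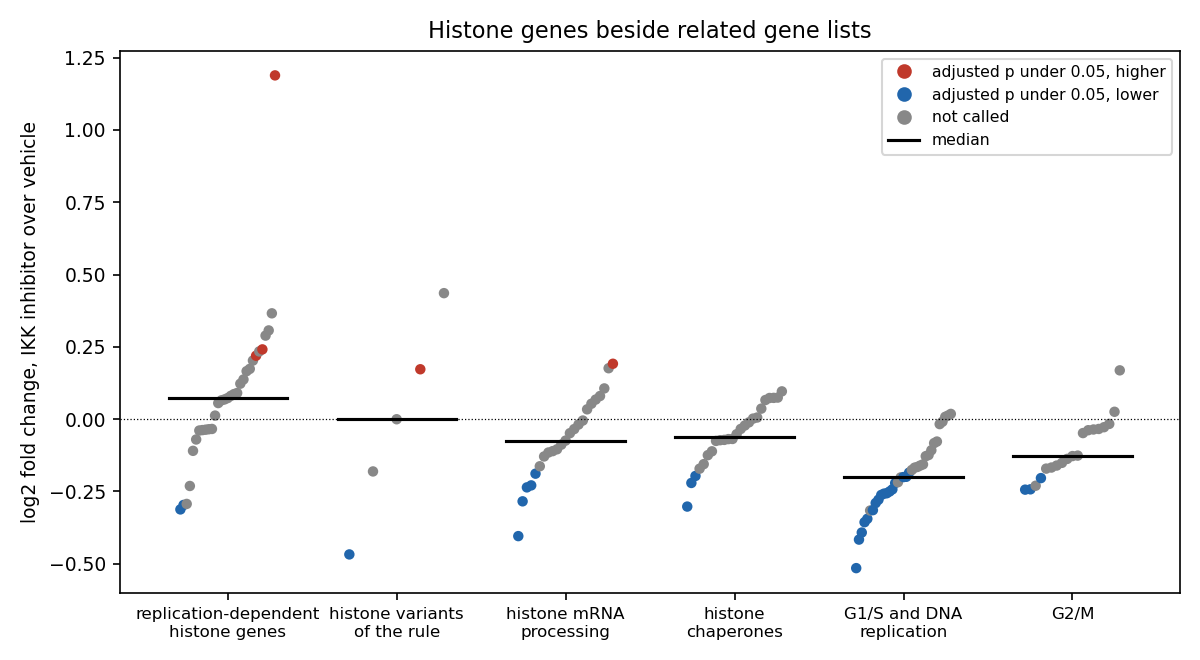
Log2 fold change of each gene, inhibitor over vehicle, for the 31 replication-dependent histone genes, the 5 variants of the rule and 4 related lists, ordered by value within each, with the median as a bar and called genes in colour. The median is 0.07 for the replication-dependent histone genes and -0.20 for the 35 genes of G1/S and DNA replication, of which 17 are called lower.

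Cell type markers and the order of the arrays were set beside these values. Of the monocyte and macrophage markers 14 of 21 were called higher and none lower, with a median of 0.54. Of the neutrophil markers 9 of 13 were higher and none lower. Among all genes 7.1% were called higher and 6.75% lower. Of the progenitor markers 6 of 12 were called lower and none higher, a count that was 3 without vehicle 2, vehicle 3 or inhibitor 1, and 4 without vehicle 1 or inhibitor 3. In each of these settings fewer of all genes were called lower too. None of the 9 T cell and 7 erythroid markers was called in limma, and 0 and 1 of them had an unadjusted p under 0.05. Among all genes tested 5394 of 19847 did. Of 9 B cell markers 2 were higher and 1 lower. In these bulk samples fewer cells of a type and less RNA per cell cannot be told apart, and the part of these markers in the histone values was not tested. Inhibitor 2 was the lowest array of its group in 20 of the 36 histone genes (55.6%) and 19 of the 31 replication-dependent ones (61.3%), against 44.0% of all genes. Inhibitor 3 was the highest of its group in 18 of 36 histone genes against 36.0% of all genes. Among the vehicle arrays, vehicle 3 was the highest in 19 of 36 (52.8%) against 31.2% of all genes, and vehicle 1 the lowest in 17 of 36 (47.2%) against 34.7%. Without inhibitor 2 the median log2 fold change of the 36 genes was 0.11.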

How the data were processed

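Total RNA of 6 samples, 3 with vehicle and 3 with 0.5 µM IKK inhibitor, was labelled as sense-strand target and read on whole-transcript arrays, per the labels' protocols. The deposited values are intensities on a linear scale that the authors obtained from Affymetrix Expression Console, as the submitters' processing notes say, with version, summarization and normalization not given in the sources used here. They ran from 0.71 to 8186. Probe sets were named through the platform annotation (1 symbol for 21789, several for 1621, none listed for 12102), and symbols were updated through Entrez numbers, which matched for 21698. Values under 16 (5.94%) were set to 16, log2 was taken, and a gene was represented by its highest probe set on average. The 2-sided comparison used the moderated linear model of limma (version 3.58.1, in R 4.3.3) without covariates and p-values adjusted by Benjamini-Hochberg over 19847 genes; fold changes, SE and 95% intervals are on this log2 scale, and the floor understates those of low genes. Probe sets annotated to several genes were tested in a fit of all probe sets. The fit was tested on simulated data of 19847 genes and found 62 of 100 with a true change of 0.5 and 95 of 100 with a true change of 1, and called 5 others. No true change under 0.5 was simulated, and all called members but H2bc4 differed by less than that.

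The members and gene lists were chosen with earlier results of these data known. By rule, the genes named were all members past the threshold, all variants of the rule, in each type the 2 smallest p and the largest fold change in each direction, the 4 smallest p of each list, and Slbp, Npat, Casp8ap2, Cenpa, Asf1b and Chaf1b; in the cell type and G2/M lists only counts are given, and Tut7 and Cpsf2, outside this rule, were named after their values were seen.. Alternatives were the replicate block, quantile normalization, median centring, filters on low values, other floors, log2 of intensity plus 16, averaged probe sets, probe sets singly, identical values once, a trended robust prior, array weights, a threshold of 0.01 and leaving out each array.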

Additional observations from a re-analysis of the deposited data

How the results depend on the processing

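Over the 22 alternatives and 36 histone genes, 778 values could be had; 700 kept the side of the threshold, 50 lost a call and 28 gained one. The sign turned in 20 values, of 11 genes, none of them among the 7 called. The count of genes called higher, 4 as reported, was 2 with the replicate block (H2bc4 and H3f3a, so that H1f2, H2bc14 and H2ax were lost), 1 with quantile normalization, median centring, probe sets tested singly or a threshold of 0.01, 8 with a filter above the median intensity and 9 with a trended robust prior. The count called lower, 3 as reported, was 5 with the trended robust prior and 1 with the threshold of 0.01. Leaving out 1 array gave 1 to 3 higher and 1 to 4 lower, and some of these were not among the 7 genes. The median of the H2A genes was -0.0059 with quantile normalization and -0.027 with a floor of 64; that of the variants was -0.091 with a filter above the 25th percentile, above the median or with the floor of 64, all of which leave 4 of 5 variants, and from -0.027 to 0.034 with 1 array left out. The median over all members lay between 0.04 and 0.11. Counts over all genes, 1409 higher and 1340 lower, were 662 and 322 at the threshold of 0.01, 890 and 952 with centring, 998 and 681 with the block, 2132 and 2202 with array weights, 1979 and 2220 with the trended prior, 1731 and 2207 above the median intensity, and 790 to 1535 and 396 to 1310 with 1 array left out. Over all alternatives the falls ran from 3 to 26 for the G1/S list (17 as reported), 1 to 8 for histone mRNA processing (5), 0 to 6 for chaperones (3), 0 to 9 for G2/M (3) and 3 to 8 for progenitor markers (6). The replicate numbers were not taken to pair the samples. Same-numbered arrays correlated at 0.24, 0.13 and -0.09 in their deviations. Vehicle 1 and vehicle 2 each correlated best with the inhibitor array of their own number, and vehicle 3 with inhibitor 2 (0.18). These values do not settle whether the arrays are paired. With the replicate number as a block 2 members were called higher and 3 lower. The cause of these changes was not tested. No signal over background is given in the table, so no probe set was judged present or absent, and genes of near-identical sequence may share signal.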
